A study of Mus musculus with 24 samples.

Results

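The genes described here are 10 mouse receptors through which macrophages bind and take up particles, lipids and dying cells: the scavenger receptors Cd36, Msr1 and Marco, the endosomal glycoprotein Cd68, the mannose receptor Mrc1, the Fc gamma receptors Fcgr1, Fcgr2b and Fcgr3, and the receptor tyrosine kinases Mertk and Axl. They were picked by symbol, and all 10 were found among the 21669 genes of the deposited tables. RNA was sequenced in 24 libraries from 2 mouse cell lines after a migration assay in culture inserts: RAW-Blue, RAW 264.7 macrophages that carry a secreted alkaline phosphatase reporter for NF-kB and AP-1, and K-Luc, a luciferase-expressing derivative of the KR158B glioma line. Cells were left to adhere for 24 h and then treated for 47 to 50 h (RAW-Blue) or 17 to 19 h (K-Luc). The 5 treatments were SWNT/CpG (single-walled carbon nanotubes dispersed in the CpG-28 oligonucleotide itself), CpG+SWNT/LP (CpG-28 together with nanotubes dispersed in lipid-PEG), CpG (CpG-28 alone), SWNT/LP (nanotubes in lipid-PEG) and untreated cells, which received water. Nanotubes, oligonucleotide and lipid-PEG were each given at 10 µg/mL. RAW-Blue had 2 libraries in every group, and K-Luc had 3 in each treated group and 2 untreated. Neither lipid-PEG alone nor a DNA control lacking CpG was given. The CpG motif and the presence of DNA cannot be told apart, and neither can lipid-PEG and the nanotubes dispersed in it. The labels do not say whether replicates were separate cultures, so p-values measure the spread between these libraries, which may be technical.

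Scavenger receptors bind modified lipoproteins, bacterial surfaces and many negatively charged particles, and pass them to endosomes and lysosomes. Fc gamma receptors bind the constant part of IgG: Fcgr1 (high affinity) and Fcgr3 (low affinity) signal through the shared Fc receptor gamma chain, whereas Fcgr2b carries an inhibitory motif that recruits the lipid phosphatase encoded by Inpp5d. Mertk and Axl, with Tyro3, form the TAM family, which engages phosphatidylserine on dying cells through the bridging proteins Gas6 and protein S and restrains inflammatory signalling in macrophages. CpG oligonucleotides are ligands of the endosomal receptor TLR9.

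Among the 4 Fc gamma receptor genes compared in sequence, Fcgr2b, Fcgr3, Fcgr1 and Fcgr4, the first 2 were the most alike, which bears on their counts. The other members were not compared in sequence. Both lie on chromosome 1, and the coding sequences of 1 transcript of each gene in the GENCODE annotation of GRCm38, of 1023 bases for Fcgr2b and 804 for Fcgr3, were identical at 88% of 778 aligned bases. Their longest shared run was 129 bases, and 17% of the 50-base windows of Fcgr2b occur in Fcgr3, against 22% of those of Fcgr3 in Fcgr2b. Fcgr1 and Fcgr4 shared no 50-base window with either gene or with each other. The stretch around the shared run is printed to show how close the pair is: coding bases 222 to 461 of Fcgr2b and 207 to 446 of Fcgr3, with the 6 differing bases in capitals.
Fcgr2b: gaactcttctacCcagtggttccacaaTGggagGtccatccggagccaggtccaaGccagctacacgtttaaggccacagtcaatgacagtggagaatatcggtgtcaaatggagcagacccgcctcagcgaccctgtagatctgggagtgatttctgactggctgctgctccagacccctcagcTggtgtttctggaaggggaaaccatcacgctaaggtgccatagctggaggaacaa
Fcgr3: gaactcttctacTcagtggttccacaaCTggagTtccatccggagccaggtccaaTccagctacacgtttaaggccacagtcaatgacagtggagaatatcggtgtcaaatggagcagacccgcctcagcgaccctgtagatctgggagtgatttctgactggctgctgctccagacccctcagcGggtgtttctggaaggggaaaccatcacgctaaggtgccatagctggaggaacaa
How the authors' counting treated reads that match both genes is not given in the sources used here, so the counts of this pair are uncertain where those runs are concerned.

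RefSeq promoters of GRCm38.p6 (250 bases before the start of the gene were searched) were matched for 9 of the 10 members, all but Msr1. Motifs were searched on both strands: the degenerate kappa B consensus for NF-kB, TGANTCA for AP-1, the other factor read by the RAW-Blue reporter, and GAGGAA for PU.1, the factor that marks myeloid promoters. Among 27025 promoters of the same length, 3.75% held the NF-kB letters, 6.87% the AP-1 letters and 23.1% the PU.1 letters. The promoters of 4 members that went different ways under treatment are shown, with matches in capitals; all 4 genes lie on the minus strand and are read 5′ to 3′ along it. Cd68 (chr11:69666171-69666420) held 2 AP-1 matches and 1 PU.1 match, Fcgr1 (chr3:96293970-96294219) 1 PU.1 match, Fcgr3 (chr1:171059404-171059653) 1 NF-kB match and, at the 3′ end, 1 PU.1 match, and Fcgr2b (chr1:170976072-170976321) none.
Cd68: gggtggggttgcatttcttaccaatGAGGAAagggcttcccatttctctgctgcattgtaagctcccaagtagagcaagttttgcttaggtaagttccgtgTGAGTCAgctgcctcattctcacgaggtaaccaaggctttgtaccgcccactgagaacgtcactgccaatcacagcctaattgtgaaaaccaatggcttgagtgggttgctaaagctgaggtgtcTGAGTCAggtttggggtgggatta
Fcgr1: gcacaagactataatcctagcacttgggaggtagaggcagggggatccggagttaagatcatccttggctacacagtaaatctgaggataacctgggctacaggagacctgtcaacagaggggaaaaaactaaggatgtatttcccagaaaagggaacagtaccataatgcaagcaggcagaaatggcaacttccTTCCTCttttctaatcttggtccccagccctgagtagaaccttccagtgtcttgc
Fcgr2b: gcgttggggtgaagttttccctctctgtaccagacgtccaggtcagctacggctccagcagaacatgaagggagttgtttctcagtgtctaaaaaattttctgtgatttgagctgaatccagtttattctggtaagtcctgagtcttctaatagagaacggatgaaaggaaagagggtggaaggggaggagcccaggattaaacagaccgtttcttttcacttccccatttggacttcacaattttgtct
Fcgr3: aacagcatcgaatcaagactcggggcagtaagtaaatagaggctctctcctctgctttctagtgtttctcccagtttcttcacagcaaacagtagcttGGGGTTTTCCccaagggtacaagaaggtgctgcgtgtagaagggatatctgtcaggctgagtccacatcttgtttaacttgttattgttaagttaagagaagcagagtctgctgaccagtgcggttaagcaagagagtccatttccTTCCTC
Among the other matched members, Axl and Marco held 1 PU.1 match, Mrc1 held 3, and Cd36 and Mertk held none of the 3 motifs. The NF-kB letters were found in Fcgr3 alone of the 9 matched members; this consensus was taken after a narrower form of it had matched none of them. A match is a run of letters and not a shown binding site.

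Libraries held 17.2 to 20.3 M counts in RAW-Blue and 13.3 to 24.1 M in K-Luc. A list of 10 macrophage markers summed to 5434 to 6321 CPM in RAW-Blue libraries, with 9 of the 10 above 10 CPM in every library. CPM are counts per 1 M counts of a library's total over the genes kept for testing, scaled by TMM. In K-Luc the list summed to 10.3 to 15.7 CPM, and Adgre1, Itgam, Spi1, Aif1 and Tyrobp had 3 counts or fewer in every library. A list of 9 glial or glioma markers summed to 554 to 662 CPM in K-Luc, with Olig2 at 3 counts or fewer, and to 11.4 to 26.5 CPM in RAW-Blue. In RAW-Blue that sum was 25.7 and 26.5 CPM with SWNT/CpG and 11.4 and 13.6 CPM in untreated cells; 6 of the 9 genes (S100b, Sox2, Olig2, Sox9, Fabp7 and Slc1a3) had 3 counts or fewer in every RAW-Blue library, and Nes made up 24.6 CPM of the mean with SWNT/CpG and 11.03 CPM in untreated cells. The dendritic cell list (6 genes, 3 of them tested) summed to 2.18 to 2.57 CPM in untreated RAW-Blue cells. It summed to 0.956 to 0.987 CPM with SWNT/CpG, 1.13 to 1.36 with CpG+SWNT/LP, 1.22 to 1.505 with CpG and 1.24 to 1.53 with SWNT/LP. The 3 tested genes did not move together. With SWNT/CpG edgeR called Siglech (0 CPM, against 1.18 in untreated cells) and Zbtb46 (0.298, against 0.981) lower. Xcr1 was called higher (0.668 CPM, against 0.189), as it was with CpG+SWNT/LP. The T, B and NK cell list reached at most 0.256 CPM in RAW-Blue. The fibroblast or vessel list of 8 genes summed to 3.13 to 3.17 CPM with SWNT/CpG, 2.77 to 3.28 with CpG+SWNT/LP, 2.84 to 2.88 with CpG and 1.58 to 2.08 with SWNT/LP, against 0.841 to 2.36 CPM in untreated RAW-Blue cells, where Pdgfra, Dcn and Lum had 3 counts or fewer in every library. Its endothelial gene Pecam1 was called higher in all 3 RAW-Blue groups with CpG, at 0.974 CPM with SWNT/CpG and 0.167 CPM in untreated cells, and Cdh5 in both groups with nanotubes and CpG. In K-Luc the same list summed to 9109 to 10085 CPM with SWNT/CpG, 7844 to 8496 with CpG+SWNT/LP, 8040 to 8817 with CpG and 4829 to 6196 with SWNT/LP, against 5104 to 6230 CPM in untreated cells, with 3 of its 8 genes above 10 CPM in every library. The part of these lists in the results was not tested. In bulk RNA fewer cells expressing a gene and less RNA per cell cannot be told apart. The untreated RAW-Blue pair was the least alike: the standard deviation of the log2 difference between its libraries was 0.408 over genes, against 0.208 to 0.262 in the 4 treated pairs.

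Per length of transcript, Cd68 was the most abundant member in RAW-Blue and Axl in K-Luc. On the authors' RPKM scale (reads per kilobase per 1 M reads), the 10 RAW-Blue libraries averaged 381 ± 55.6 for Cd68, 35.9 ± 11.3 for Msr1, 23.6 ± 3.78 for Fcgr3, 18.5 ± 7.39 for Fcgr2b, 3.99 ± 0.93 for Fcgr1, 3.25 ± 0.55 for Cd36 and 1.79 ± 0.51 for Axl (mean and SD over all treatments). Neighbours in this order whose ranges over libraries overlapped were Msr1 (18.4 to 54.4 RPKM) and Fcgr3 (17.9 to 30.8), Fcgr3 and Fcgr2b (10.1 to 31.1), and Fcgr1 (2.5 to 5.1), Cd36 (2.1 to 4.0) and Axl (1.3 to 2.8). Marco, Mrc1 and Mertk were listed at 0 RPKM in every RAW-Blue library. In the 14 K-Luc libraries Axl averaged 99.2 ± 5.80 RPKM, Mertk 4.16 ± 0.71 and Cd68 0.629 ± 0.14, and the other 7 members were listed at 0. The macrophage line thus had Cd68, Msr1, the 3 Fc receptors, Cd36 and, at 1.79 RPKM, Axl. The glioma line had Axl, Mertk and, at 0.629 RPKM, Cd68.

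**Figure D1:**
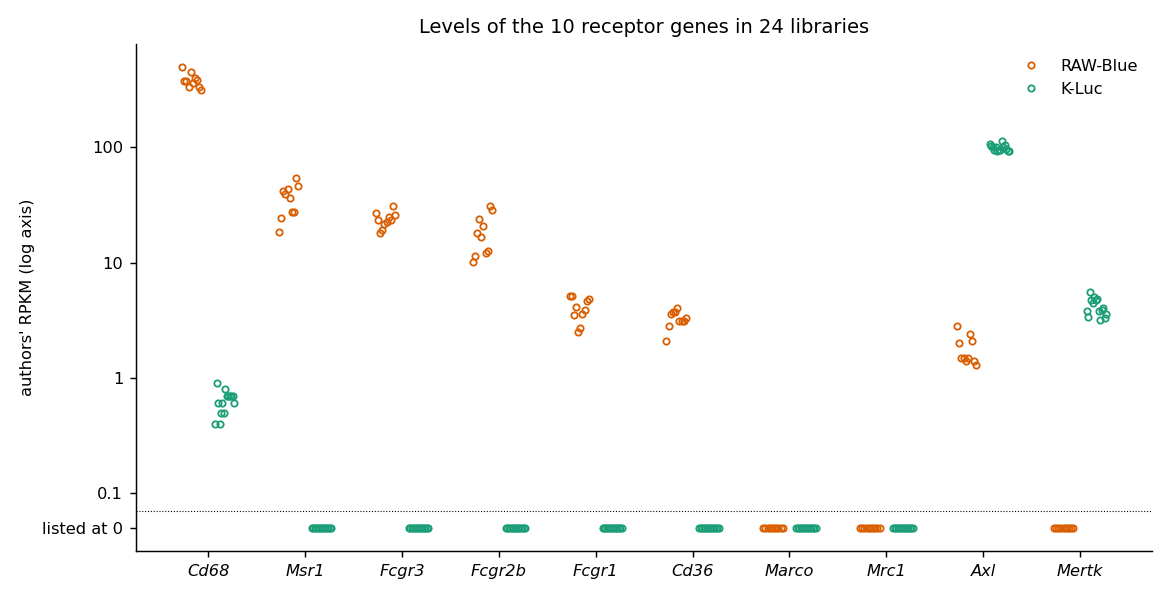
Level of each of the 10 members in RPKM, as deposited, with 1 point per library, for the 10 RAW-Blue and 14 K-Luc libraries. Cd68 stood at 315 to 496 RPKM in RAW-Blue and Axl at 93 to 112 RPKM in K-Luc, while Marco and Mrc1 were listed at 0 in both lines.

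Between untreated RAW-Blue and untreated K-Luc cells, 8 of the 10 members passed the filter on low counts and all 8 passed edgeR's test, 6 higher and 2 lower in RAW-Blue, beside 77.9% of the 13350 genes tested. Summed over the 2 libraries of each line, Msr1 had 5118 counts in RAW-Blue and 2 in K-Luc, a 2550-fold ratio per total count with a counting interval of 705 to 21059. Cd68 had 25757 counts in RAW-Blue and 36 in K-Luc, a 713-fold ratio (515 to 1018). Fcgr1 had 786 counts in RAW-Blue and 2 in K-Luc (392-fold, 108 to 3239), and Fcgr2b 2028 and 1 (2021-fold, 362 to 79847). Cd36 and Fcgr3 were at 0 in untreated K-Luc cells, so that RAW-Blue was at least 189-fold higher for Cd36 and at least 721-fold higher for Fcgr3, against a floor of 3 counts over the group. Axl ran the other way, with 785 counts in RAW-Blue and 31075 in K-Luc, a ratio of 0.0252 (0.0234 to 0.0270). Mertk had 0 counts in untreated RAW-Blue cells against 671 in K-Luc, at least 224-fold lower in RAW-Blue. These intervals are 95% and cover counting error only. Without replicate 2 of untreated K-Luc the log2 differences of Cd36, Msr1, Fcgr2b and Fcgr3 were 7.99, 7.42, 11.5 and 10.5. Their standard errors were 195 or more in that fit, where the untreated K-Luc library left held 0 to 2 counts of each. Errors of this size allow no reading of that fit for these genes.

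In RAW-Blue 7 members had enough counts to be tested across treatments: Cd36, Msr1, Cd68, Fcgr1, Fcgr2b, Fcgr3 and Axl. Marco had 7 counts in all 10 RAW-Blue libraries together, at most 2 in each, Mrc1 had 14, at most 4 in each, and Mertk had 4, at most 2 in each. At these depths a count of 0 allows up to 0.175 CPM in the smallest library, and no change of Marco, a scavenger receptor known for binding uncoated particles, of Mrc1, a marker of alternatively activated macrophages, or of Mertk was detectable. Under SWNT/CpG, 4 of the 7 differed from untreated cells (2 higher, 2 lower), beside 23.2% of the 11514 genes tested with edgeR at an adjusted p under 0.05. With CpG+SWNT/LP 5 of 7 did (3 higher, 2 lower), beside 20.3% of genes. With CpG alone 5 of 7 did (3 higher, 2 lower), beside 10.8%. With SWNT/LP 0 of 7 did, beside 0.478%. The median log2 fold change of the 7 was 0.19, -0.06, -0.27 and -0.08 in that order of treatments, against 0.00, 0.00, 0.01 and 0.01 over all genes tested. The 4 comparisons share the untreated libraries and are not independent of each other.

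**Figure D2:**
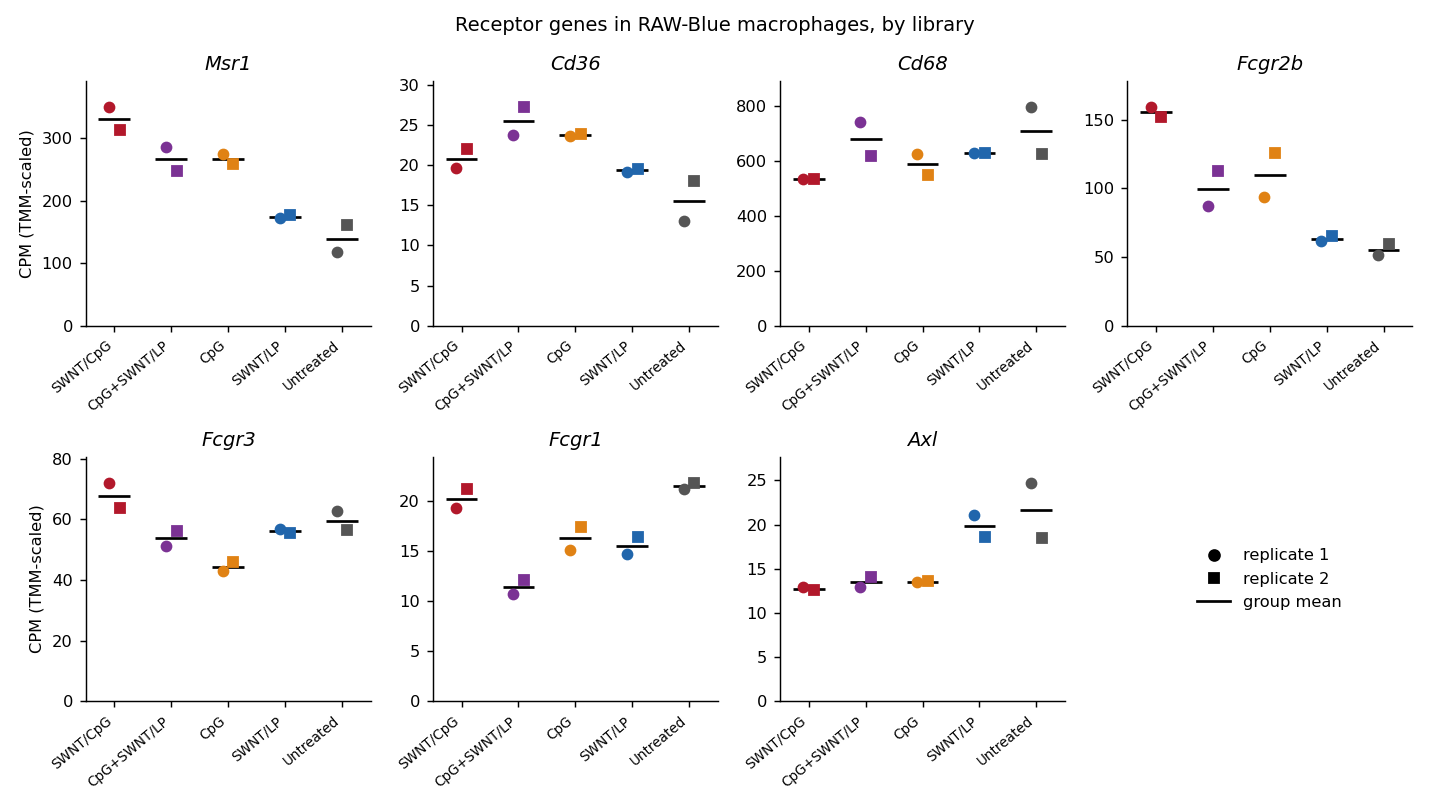
CPM of the 7 members tested in RAW-Blue, 1 panel per gene, with both libraries of each treatment as points and their mean as a line; each vertical axis has its own scale. Msr1 and Fcgr2b were highest with SWNT/CpG, and Axl was lowest in the 3 groups that received CpG.

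Msr1, the class A scavenger receptor that takes up acetylated lipoproteins and polyanionic particles, rose in all 3 groups that received the oligonucleotide. It measured 350 and 313 CPM in the SWNT/CpG libraries, 286 and 248 in CpG+SWNT/LP, 275 and 259 in CpG and 172 and 178 in SWNT/LP, against 117 and 161 CPM in untreated cells. Every library with CpG lay above every library without it, and the SWNT/CpG pair lay above all others. The share of all genes whose libraries separate in this way was not counted, here or for the members below. The log2 fold change over untreated cells was 1.25 ± 0.14 with SWNT/CpG (a 2.38-fold difference, adjusted p = 0.000214), 0.94 ± 0.14 with CpG+SWNT/LP (adjusted p = 0.0015) and 0.94 ± 0.14 with CpG (adjusted p = 0.00273); here and below the error is the standard error. SWNT/LP gave 0.33 ± 0.14 (95% interval 0.02 to 0.63), which was not called (adjusted p = 0.363). The SWNT/CpG and CpG+SWNT/LP calls held without any 1 library (adjusted p at most 0.0035 and 0.016). With only the 2 compared groups in the fit, the CpG call was lost (adjusted p = 0.0671).

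Cd36, a class B scavenger receptor for oxidized lipoproteins and long-chain fatty acids, moved less. Its levels were 19.7 and 22.0 CPM with SWNT/CpG, 23.8 and 27.2 with CpG+SWNT/LP, 23.6 and 23.9 with CpG and 19.2 and 19.5 with SWNT/LP, against 13 and 18 CPM in untreated cells. All treated libraries lay above both untreated ones, and the untreated pair was itself wide apart. Cd36 rose with CpG+SWNT/LP (0.72 ± 0.14, adjusted p = 0.00755) and with CpG (0.61 ± 0.14, adjusted p = 0.0251), and was not called with SWNT/CpG (0.42 ± 0.15, adjusted p = 0.0612) or SWNT/LP (0.32 ± 0.15, adjusted p = 0.397). These calls were not stable: the CpG+SWNT/LP rise was lost without its replicate 2 (adjusted p = 0.0674) and the CpG rise without either CpG library (adjusted p = 0.114 and 0.13), both were lost with only the compared groups in the fit (0.101 and 0.207), the CpG rise was 0.40 without untreated replicate 1 (0.024), and the SWNT/CpG difference was called with no filter on low counts (0.0343) and without untreated replicate 2 (0.000353).

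Cd68, a heavily glycosylated protein of late endosomes used as a macrophage marker, did not follow Msr1. It stood at 534 and 534 CPM with SWNT/CpG, 741 and 617 with CpG+SWNT/LP, 624 and 549 with CpG and 629 and 628 with SWNT/LP, against 794 and 624 CPM in untreated cells. The SWNT/CpG libraries were the lowest of the 10, while each other treated pair had at least 1 library within the untreated range. It fell by 0.41 on the log2 scale with SWNT/CpG (standard error 0.12, adjusted p = 0.0379), and was not called with CpG+SWNT/LP (-0.06 ± 0.12, 0.764), CpG (-0.27 ± 0.12, 0.185) or SWNT/LP (-0.17 ± 0.12, 0.547). The fall was lost without untreated replicate 1 (-0.22, adjusted p = 0.111), without either SWNT/CpG library (0.163 and 0.152) and with only the compared groups in the fit (0.133).

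The 3 Fc gamma receptors went separate ways. Fcgr2b, the inhibitory receptor, had 159 and 152 CPM with SWNT/CpG, 86.9 and 113 with CpG+SWNT/LP, 93.9 and 126 with CpG and 61.6 and 65.5 with SWNT/LP, against 51.3 and 59.4 CPM in untreated cells. The SWNT/CpG pair was the highest, the other groups with CpG came next, and no library with CpG overlapped the 4 without it. Fcgr2b rose by 1.49 ± 0.16 with SWNT/CpG (2.81-fold, adjusted p = 0.000248), by 0.85 ± 0.16 with CpG+SWNT/LP (adjusted p = 0.00626) and by 0.99 ± 0.16 with CpG (adjusted p = 0.00525). SWNT/LP gave 0.20 ± 0.16 (95% interval -0.16 to 0.56). The SWNT/CpG rise held without any 1 library (adjusted p at most 0.0107). Without untreated replicate 1 the CpG+SWNT/LP and CpG rises missed the threshold (adjusted p = 0.0743 and 0.0641), and the CpG rise also with only the compared groups in the fit (0.0645).

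Fcgr3, the activating receptor closest to Fcgr2b in sequence, stayed within a narrower range. Its levels were 72.0 and 63.7 CPM with SWNT/CpG, 51.2 and 56.3 with CpG+SWNT/LP, 43.0 and 45.8 with CpG and 56.8 and 55.6 with SWNT/LP, against 62.6 and 56.4 CPM in untreated cells. The CpG pair was the lowest and the SWNT/CpG pair the highest. With CpG it fell by 0.42 on the log2 scale (standard error 0.09, adjusted p = 0.0194), a call lost without either CpG library (0.139 and 0.0854) and with only the compared groups in the fit (0.201). It was not called with SWNT/CpG (0.19 ± 0.09, 0.169), CpG+SWNT/LP (-0.15 ± 0.09, 0.296) or SWNT/LP (-0.08 ± 0.09, 0.704). Without untreated replicate 1 the SWNT/CpG difference was called as higher (0.27, adjusted p = 0.0305), and without untreated replicate 2 the CpG+SWNT/LP difference as lower (-0.22, adjusted p = 0.0482).

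Fcgr1, the high-affinity receptor, had 19.3 and 21.1 CPM with SWNT/CpG, 10.7 and 12.1 with CpG+SWNT/LP, 15.1 and 17.4 with CpG and 14.7 and 16.4 with SWNT/LP, against 21.2 and 21.8 CPM in untreated cells. The CpG+SWNT/LP pair was the lowest, below every other library, and the CpG and SWNT/LP pairs lay between it and untreated cells. Fcgr1 fell by 0.91 on the log2 scale with CpG+SWNT/LP (standard error 0.12, adjusted p = 0.000752), and the fall held without any 1 library (adjusted p at most 0.0117). The differences with CpG (-0.40 ± 0.11, adjusted p = 0.0513) and SWNT/LP (-0.47 ± 0.11, adjusted p = 0.138) were not called, nor was that with SWNT/CpG (-0.09 ± 0.11, 95% interval -0.34 to 0.16, adjusted p = 0.612). The CpG difference was called with no filter on low counts (adjusted p = 0.0448) and without either untreated library (0.0285 and 0.0234), and the SWNT/LP difference without either untreated library (0.0463 and 0.0119).

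Set against each other within a library, counts of the inhibitory Fcgr2b per count of the activating Fcgr3 were 2.21 and 2.39 with SWNT/CpG, 1.70 and 2.00 with CpG+SWNT/LP, 2.19 and 2.75 with CpG and 1.08 and 1.18 with SWNT/LP, against 0.820 and 1.05 in untreated cells. The 6 libraries with CpG did not overlap the 4 without it. In CpG cells a higher Fcgr2b and a lower Fcgr3 made up the ratio, and with SWNT/CpG it was made up by Fcgr2b, Fcgr3 not being lower there. On the RPKM scale, which divides by length, the ratio was 1.01 and 1.10 with SWNT/CpG, 0.776 and 0.916 with CpG+SWNT/LP, 1.00 and 1.26 with CpG and 0.496 and 0.540 with SWNT/LP, against 0.374 and 0.481 in untreated cells. This ratio is given as a description with no test.

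**Figure D3:**
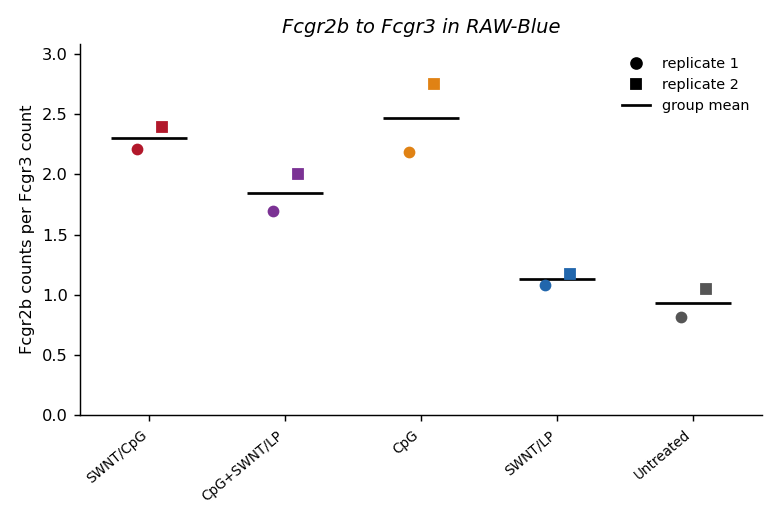
Counts of Fcgr2b per count of Fcgr3 in each RAW-Blue library, by treatment, on a linear axis. The 6 libraries that received CpG lie between 1.70 and 2.75, above the SWNT/LP libraries at 1.08 and 1.18 and the untreated ones at 0.820 and 1.05.

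Axl, the TAM receptor that binds Gas6, was the member that fell in all 3 groups with CpG. RAW-Blue levels were 12.9 and 12.6 CPM with SWNT/CpG, 12.9 and 14.1 with CpG+SWNT/LP, 13.5 and 13.6 with CpG and 21.0 and 18.6 with SWNT/LP, against 24.7 and 18.5 CPM in untreated cells. No library with CpG overlapped one without it, and the SWNT/LP pair lay inside the range of the untreated pair. Axl fell by 0.76 on the log2 scale with SWNT/CpG (standard error 0.14, adjusted p = 0.00387), by 0.68 with CpG+SWNT/LP (0.14, adjusted p = 0.00868) and by 0.67 with CpG (0.14, adjusted p = 0.0157), and the SWNT/LP difference was -0.12 ± 0.14 (95% interval -0.42 to 0.18). The SWNT/CpG fall held without any 1 library (adjusted p at most 0.0375). The CpG+SWNT/LP fall was lost without its replicate 1 (adjusted p = 0.0782) and with only the compared groups in the fit (0.103), and the CpG fall without either CpG library (0.0992 and 0.101) and with only the compared groups (0.168).

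**Figure D4:**
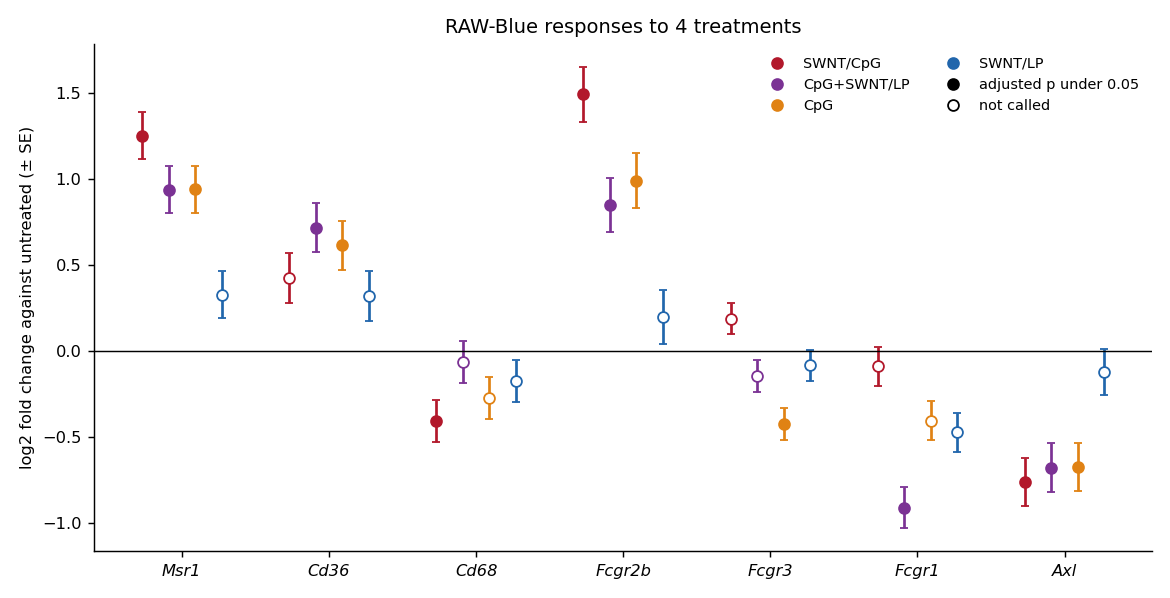
Log2 fold change over untreated cells of the 7 tested members in RAW-Blue for the 4 treatments. Bars are standard errors from edgeR, and filled points passed an adjusted p of 0.05. Msr1 and Fcgr2b lie above 0 and Axl below it in the 3 treatments with CpG, and no SWNT/LP point is filled.

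With nanotubes in lipid-PEG alone, no member passed the test, and the count is not stable. At an unadjusted p under 0.05 edgeR gave 2 of the 7 members, Msr1 and Fcgr1, and 1463 of the 11514 genes (12.7%); DESeq2 called no member and 151 genes. Without untreated replicate 2 the test called 5 members: Cd36 (0.57, adjusted p = 0.0024) and Msr1 (0.57, adjusted p = 0.00037) as higher, and Cd68 (-0.34, 0.0224), Fcgr1 (-0.45, 0.0119) and Axl (-0.32, 0.0373) as lower. Without untreated replicate 1 it called Fcgr1 alone. Which members passed thus depended on the untreated library that was left in.

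How the nanotubes and the oligonucleotide were combined was compared directly. SWNT/CpG and CpG+SWNT/LP both give nanotubes and CpG-28 at the same doses. The oligonucleotide is the dispersant in SWNT/CpG and stands beside nanotubes in lipid-PEG in CpG+SWNT/LP. Lipid-PEG was in CpG+SWNT/LP only, so its presence and the way of combining cannot be told apart, here and below. Of the 7 tested members 1 differed, beside 0.825% of genes: Fcgr1, at 20.2 ± 1.30 CPM with SWNT/CpG and 11.4 ± 1.00 with CpG+SWNT/LP (SD, n = 2 each; log2 difference 0.82 ± 0.12, adjusted p = 0.0249). That call was lost when any 1 of the 4 libraries was left out (adjusted p = 0.0845 to 0.319). Fcgr2b was higher by 0.64 ± 0.15 with SWNT/CpG, which edgeR did not call (adjusted p = 0.1) and DESeq2 (0.00589) and a fit of the 2 groups alone (0.018) did. The other members gave log2 differences of 0.33 ± 0.09 (Fcgr3), 0.31 ± 0.13 (Msr1), -0.08 ± 0.14 (Axl), -0.29 ± 0.14 (Cd36) and -0.35 ± 0.12 (Cd68), none called, with 95% intervals of 0.13 to 0.54, 0.01 to 0.61, -0.41 to 0.24, -0.61 to 0.02 and -0.62 to -0.07.

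Set against CpG alone, SWNT/CpG differed in 1 of the 7 members, beside 0.842% of genes. Fcgr3 stood at 67.9 ± 5.89 CPM with SWNT/CpG and 44.4 ± 2.02 CPM with CpG (SD, n = 2 each), a log2 difference of 0.61 ± 0.09 (adjusted p = 0.0307). It was lost without either CpG library (0.36 and 0.0888) and without SWNT/CpG replicate 1 (0.314). The differences of Msr1 (0.31 ± 0.13) and Fcgr2b (0.50 ± 0.15) between these groups were not called, with 95% intervals of 0.01 to 0.61 and 0.15 to 0.85, and that of Axl was -0.09 ± 0.14 (-0.41 to 0.24). Set against SWNT/LP, SWNT/CpG differed in 3 of 7, beside 10.3% of genes: Msr1 (0.92 ± 0.14, adjusted p = 0.00221) and Fcgr2b (1.29 ± 0.16, adjusted p = 0.00109) were higher and Axl lower (-0.64 ± 0.14, adjusted p = 0.0175). The Axl call was lost without any 1 of the 4 libraries (adjusted p = 0.0615 to 0.165).

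Adding CpG to nanotubes in lipid-PEG raised 2 of the 7 members over SWNT/LP, beside 4.82% of genes. Both calls lay close to the threshold, and no member was called lower. Axl was called lower by DESeq2 (-0.55, adjusted p = 0.0402) and by edgeR with no filter on low counts (-0.55, 0.0186). A fit of the compared groups alone called Axl (-0.55, 0.00419) and Fcgr1 (-0.44, 0.0209) lower and Cd36 higher (0.40, 0.0117). Msr1 was higher by 0.61 ± 0.14 (adjusted p = 0.0332), a call lost without any 1 of the 4 libraries (0.0811 to 0.25). Fcgr2b was higher by 0.65 ± 0.16 (adjusted p = 0.0496), lost with no filter on low counts (0.0537), without CpG+SWNT/LP replicate 2 (0.267) and without either SWNT/LP library (0.312 and 0.22). In the other direction, adding nanotubes in lipid-PEG to CpG changed 0 of the 7, beside 0.130% of genes; 2 members, Fcgr1 and Fcgr3, had an unadjusted p under 0.05, as had 756 genes, and DESeq2 called no member and 47 genes. Fcgr1 differed by -0.51 ± 0.12 and Msr1 by 0.00 ± 0.13 (95% interval -0.30 to 0.30).

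Whether CpG and SWNT/LP combined to more or less than the sum of their separate log2 effects was tested as an interaction in edgeR. It called 0 of the 7 members and 0% of the 11514 genes, and DESeq2 called no member and 4 genes. At an unadjusted p under 0.05 there were 419 genes, Fcgr3 being the only member (0.36 ± 0.13). Without untreated replicate 2 the interaction was called for 4 members: Cd36 (-0.47, adjusted p = 0.0394) and Msr1 (-0.57, 0.00305) below the sum, Cd68 (0.55, 0.012) and Fcgr3 (0.43, 0.012) above it.

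The partners of the Fc receptors moved in both directions in RAW-Blue. Of 11 listed genes, all tested, SWNT/CpG raised 4 and lowered 2 relative to untreated cells, CpG+SWNT/LP raised 3 and lowered 4, CpG raised 1 and lowered 2, and SWNT/LP changed none. The shares called over all genes tested, for this and the lists that follow, were 23.2% with SWNT/CpG, 20.3% with CpG+SWNT/LP, 10.8% with CpG and 0.478% with SWNT/LP, and the median log2 fold change over all genes with SWNT/CpG was 0.00, against 0.04 for these 11. With SWNT/CpG, Lyn, a Src-family kinase that phosphorylates Fc receptor tails, rose by 0.71 ± 0.07 (adjusted p = 1e-04) and Fcgr4, a further activating IgG receptor, by 0.70 ± 0.14 (0.00598). Inpp5d, the phosphatase recruited by Fcgr2b, fell by 0.45 with SWNT/CpG (standard error 0.07, adjusted p = 0.00141), with means of 240 CPM there and 329 CPM in untreated cells. Syk, the kinase downstream of activating receptors, rose with CpG+SWNT/LP (0.47 ± 0.08, 0.00379), and Fgr, another Src-family kinase, fell by 1.20 there (standard error 0.21, 0.00406). Plcg2, a phospholipase of this pathway, fell by 0.40 with CpG (standard error 0.08, 0.00953).

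Of the ligands of Axl and Mertk, Gas6 was lower and Pros1 higher under treatments with CpG. Gas6, the bridging ligand of Axl, averaged 2.14 CPM with SWNT/CpG and 5.97 CPM in untreated cells, and fell by 1.47 (standard error 0.25, adjusted p = 0.00258) with SWNT/CpG and by 0.92 (standard error 0.24, 0.0368) with CpG. With CpG+SWNT/LP, where Axl fell, Gas6 was not called (-0.59 ± 0.23, adjusted p = 0.101). Pros1, which encodes protein S, rose with SWNT/CpG (0.74 ± 0.14, 0.00506), with CpG+SWNT/LP (0.72 ± 0.14, 0.0074) and with CpG (0.61 ± 0.14, 0.0251). Mfge8, another phosphatidylserine bridge that acts through integrins, fell in the same 3 treatments, by 0.38, 0.38 and 0.44 (adjusted p = 0.0222, 0.0246 and 0.0223). Of the 7 listed TAM genes, all tested, 1 rose and 2 fell with SWNT/CpG, 1 rose and 1 fell with CpG+SWNT/LP, 1 rose and 2 fell with CpG, and none changed with SWNT/LP, beside 23.2%, 20.3%, 10.8% and 0.478% of all genes in that order; 2 of 7 with CpG+SWNT/LP is near the share of all genes. The median of the 7 with SWNT/CpG was -0.13. Tyro3, the third TAM receptor, was at 0.601 CPM with SWNT/CpG and 1.02 CPM in untreated cells and was not called (adjusted p = 0.156).

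Among 16 other scavenger receptors, 8 were tested. SWNT/CpG raised 1 and lowered 3, CpG+SWNT/LP raised 1 and lowered 1, CpG lowered 2, and SWNT/LP changed none, beside 23.2%, 20.3%, 10.8% and 0.478% of all genes; 2 of 8 with CpG+SWNT/LP is near the share of all genes. The median of the 8 with SWNT/CpG was -0.06. Stab1, which takes up modified lipoproteins and extracellular debris, rose by 0.68 ± 0.12 with SWNT/CpG (adjusted p = 0.00296). Lrp1, a large endocytic receptor, fell by 0.49 (standard error 0.07, 0.000808), the lysosomal receptor Scarb2 by 0.60 (0.09, 0.00161) and the lipoprotein receptor Scarb1 by 0.49 (0.09, 0.00493) with SWNT/CpG. Colec12, a scavenger receptor with a collagen-like stalk, rose by 0.41 ± 0.10 with CpG+SWNT/LP (0.017).

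C-type lectins, to which Mrc1 belongs, had 7 of 11 listed genes tested. SWNT/CpG raised 4 and lowered 1, CpG+SWNT/LP raised 3 and lowered 3, CpG raised 3 and lowered 2, and SWNT/LP changed none, beside 23.2%, 20.3%, 10.8% and 0.478% of all genes. The median log2 fold change of the 7 was 0.95 with SWNT/CpG, 0.54 with CpG+SWNT/LP, -0.14 with CpG and 0.22 with SWNT/LP. Clec4d averaged 243 CPM with SWNT/CpG and 103 CPM in untreated cells (1.24 ± 0.10, adjusted p = 3.36e-05), and rose with CpG+SWNT/LP (1.15 ± 0.10, 7.25e-05) and CpG (0.84 ± 0.10, 0.000826). Clec4e, its partner in sensing mycobacterial glycolipid, rose by 0.95 ± 0.11 with SWNT/CpG (0.000243), and Clec5a by 1.03 ± 0.19 (0.00486). Clec12a, an inhibitory lectin, fell by 0.79 with SWNT/CpG (standard error 0.09, 0.000285). Clec7a, the beta-glucan receptor, fell by 1.55 with CpG+SWNT/LP (standard error 0.31, 0.00911).

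Of 18 other engulfment receptors and adaptors, 14 were tested, and SWNT/CpG raised 3 and lowered 4, as did CpG+SWNT/LP, while CpG raised 1 and lowered 4 and SWNT/LP changed none, beside 23.2%, 20.3%, 10.8% and 0.478% of all genes. The median of the 14 with SWNT/CpG was -0.05. Itgam, the alpha chain of complement receptor 3, averaged 1035 CPM with SWNT/CpG and 483 CPM in untreated cells (1.10 ± 0.12, 0.000214). Trem2, a lipid-sensing receptor, fell by 0.84 (standard error 0.10, 0.000357) and Itgb5, an integrin chain that binds Mfge8, by 0.96 (0.11, 0.000213) with SWNT/CpG. Cd300lf rose with SWNT/CpG over untreated cells (0.74 ± 0.12, 0.00193) and over CpG+SWNT/LP (0.79 ± 0.12, adjusted p = 0.026). Dock1, a guanine exchange factor for engulfment, fell by 0.34 with CpG (standard error 0.07, 0.0126). Itgam, Tyrobp and Cd14 of this list are also on the macrophage marker list.

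Lipid genes linked to Cd36 had 8 of 9 tested, all but Pparg, which did not pass the filter on low counts. SWNT/CpG raised 1 and lowered 2, CpG+SWNT/LP raised 2 and lowered 3, CpG raised 1 and lowered 1, and SWNT/LP changed none, beside 23.2%, 20.3%, 10.8% and 0.478% of all genes. The median of the 8 with SWNT/CpG was 0.10. Fabp4, a fatty-acid chaperone induced by the nuclear receptor encoded by Pparg, averaged 39.4 CPM with SWNT/CpG and 6.04 CPM in untreated cells (2.70 ± 0.15, adjusted p = 5.83e-06), and rose with CpG+SWNT/LP (2.43 ± 0.15, 1.1e-05) and CpG (1.85 ± 0.16, 0.000132). Lpl, lipoprotein lipase, fell by 0.69 with SWNT/CpG (standard error 0.13, 0.00442), by 0.75 with CpG+SWNT/LP (0.13, 0.00385) and by 0.54 with CpG (0.13, 0.0269). Plin2, the coat protein of lipid droplets, rose with CpG+SWNT/LP (1.16 ± 0.15, 0.000908), and was lower with SWNT/CpG than with CpG+SWNT/LP (-0.82 ± 0.15, adjusted p = 0.0445).

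Across the 10 RAW-Blue libraries, which share their treatments and depth range, the log2 CPM of Msr1 ran with that of Fcgr2b (Pearson r = 0.92) and against that of Axl (r = -0.97), and Fcgr2b ran against Axl (r = -0.89). Fcgr1 (r = -0.03 with Fcgr2b) and Fcgr3 (r = 0.12 with Fcgr2b) followed neither. Cd36 ran with Msr1 (r = 0.75) and against Axl (r = -0.81), and Cd68 ran against Fcgr2b (r = -0.76) and Msr1 (r = -0.63). Among 9095 genes that averaged 3 or more in log2 CPM, those most like each member were Srfbp1 (0.99), Gk (0.98) and Fyb (0.98) for Msr1. For Fcgr2b they were Itgam, Ikbke and Naip2 (0.99 each), and for Axl Zc3h7b (0.99), Avpi1 (0.98) and Cbx6 (0.98). Cd36 was closest to Mak16 (0.98), Rwdd4a (0.97) and Uchl4 (0.96), and Cd68 to Mul1 (0.96), Ak1 (0.95) and Steap3 (0.94). Fcgr1 was closest to Tfcp2 (0.97), Uhrf1bp1 (0.95) and Tyk2 (0.95), and Fcgr3, with the weakest likeness, to Slc40a1 (0.92), Vipas39 (0.92) and B3gnt3 (0.91).

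In K-Luc glioma cells 3 members had enough counts for a test: Axl, Mertk and Cd68. Over the 14 libraries Cd36 had 10 counts in all, Msr1 8, Fcgr1 13, Fcgr2b 3, Fcgr3 4, Mrc1 14 and Marco 0, at most 3 in any library; a count of 0 allows up to 0.225 CPM in the smallest library. Relative to untreated K-Luc cells, SWNT/CpG changed 1 of the 3, beside 43.1% of 12420 genes, CpG+SWNT/LP 2, beside 33.9%, CpG 1, beside 36.2%, and SWNT/LP 0, beside 0.129%. With SWNT/LP no member had an unadjusted p under 0.05, against 538 genes, and DESeq2 called no member and 33 genes.

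Mertk rose in K-Luc with CpG and with CpG+SWNT/LP, and not with SWNT/CpG. Its levels were 21.0, 17.9 and 19.6 CPM with SWNT/CpG, 26.0, 24.8 and 26.0 with CpG+SWNT/LP, 28.4, 24.8 and 24.3 with CpG and 20.0, 17.3 and 21.1 with SWNT/LP, against 20.0 and 17.9 CPM in untreated cells. The 6 CpG and CpG+SWNT/LP libraries lay above all 8 others. The rise was 0.46 ± 0.10 with CpG+SWNT/LP (edgeR adjusted p = 0.00179) and 0.51 ± 0.10 with CpG (0.00121), and SWNT/CpG gave 0.06 ± 0.10 (95% interval -0.15 to 0.27, 0.645). Both rises were lost without untreated replicate 2 (adjusted p = 0.0769 and 0.0757). Tested directly, Mertk was lower with SWNT/CpG than with CpG+SWNT/LP (-0.40 ± 0.08, adjusted p = 0.0028), 1 of 3 members beside 17.7% of genes, and than with CpG (-0.44 ± 0.09, adjusted p = 0.00183), 1 of 3 beside 14.9%, and both of these calls held without any 1 library and in run 2 alone.

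**Figure D5:**
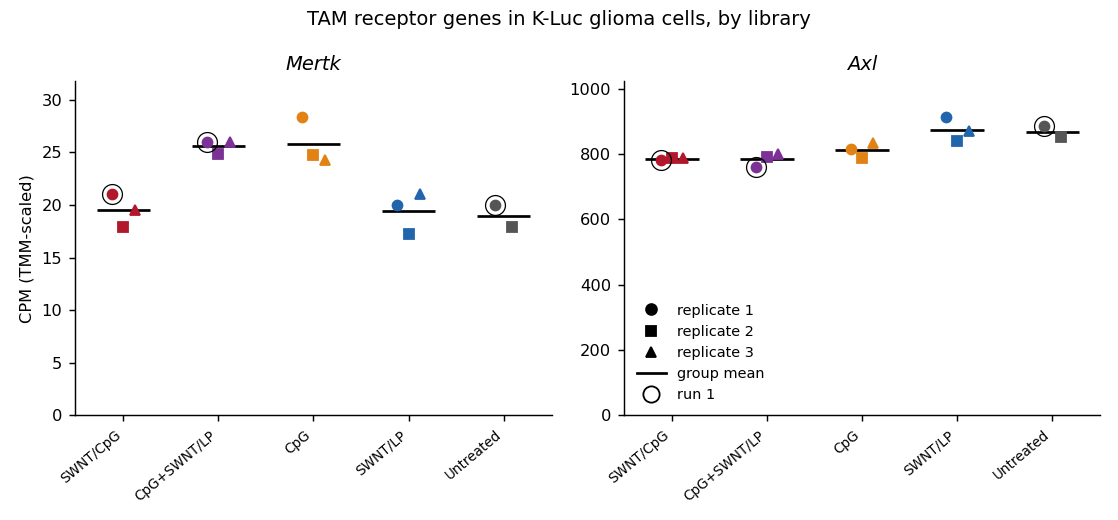
CPM of Axl and Mertk in the 14 K-Luc libraries by treatment, with each library as a point, the mean as a line and the sequencing run marked. Mertk lies between 24.3 and 28.4 CPM with CpG and CpG+SWNT/LP and between 17.3 and 21.1 CPM in the other groups.

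Axl changed little in K-Luc against its high level there. It measured 784, 789 and 787 CPM with SWNT/CpG, 761, 792 and 800 with CpG+SWNT/LP, 815, 787 and 834 with CpG and 914, 840 and 871 with SWNT/LP, against 885 and 852 CPM in untreated cells. All SWNT/CpG, CpG+SWNT/LP and CpG libraries lay below both untreated ones. Axl fell by 0.15 on the log2 scale with SWNT/CpG (standard error 0.05, adjusted p = 0.018) and by 0.15 with CpG+SWNT/LP (0.05, adjusted p = 0.0202), and was not called with CpG (-0.10 ± 0.05, 0.114) or SWNT/LP (0.00 ± 0.05, 0.994). Within sequencing run 2 the falls were 0.11 and 0.10 and were not called (adjusted p = 0.209 and 0.281); run 1 holds 1 library each of 3 groups. They were also lost without untreated replicate 1 (0.193 and 0.182), without SWNT/CpG replicate 1 (0.0631) and without CpG+SWNT/LP replicate 1 (0.15). With the replicate number as a block, edgeR called the difference of Axl with CpG (-0.13, adjusted p = 0.00309). Cd68, at 7 to 29 counts per library, was not called in any of the 6 K-Luc comparisons. Among them was SWNT/CpG against untreated cells (-0.07 ± 0.32, 95% interval -0.75 to 0.60).

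The response of Axl differed between the lines. The fall with SWNT/CpG was larger in RAW-Blue than in K-Luc by 0.62 on the log2 scale (standard error 0.13, adjusted p = 0.00138 in a fit of both lines), and the fall with CpG by 0.59 (standard error 0.14, adjusted p = 0.00349), beside 25.4% and 21.9% of genes. Without untreated RAW-Blue replicate 1 the differences were smaller, -0.37 for SWNT/CpG and -0.34 for CpG, and were still called. Cd68, the other member with counts enough in both lines, was not called (adjusted p = 0.601 and 0.632). Treatment lasted 47 to 50 h in RAW-Blue and 17 to 19 h in K-Luc, so line and time cannot be told apart.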

How the data were processed

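Libraries came from a stranded mRNA kit, per the labels' protocols. Tools named by the submitters' processing notes are TopHat2 2.0.14 and HTSeq 0.6.0, with genome build mm9. Annotation, strand mode and the handling of reads with several matches: not given in the sources used here. Raw read counts for 21669 genes in 24 libraries make up the count table the authors deposited, and the deposited RPKM table, rounded by the authors, was used for levels only. Samples were grouped by line and treatment from the labels. CPM were computed here from a library's total over the genes kept in a fit, scaled by TMM. The detection limits in CPM and the ranking by CPM used unscaled totals over all genes. In edgeR 4.0.16 (R 4.3.3), genes were kept by filterByExpr (minimum count 10, minimum total 15), scaled by TMM and tested with a robust quasi-likelihood fit and F test, and Benjamini-Hochberg adjustment over all tested genes of a comparison, called at an adjusted p under 0.05. The RAW-Blue fit has a term for group (10 libraries, 11514 genes, 5 residual degrees of freedom); the K-Luc fit (14 libraries, 12420 genes, 8 residual degrees of freedom) and the fit of both lines (13350 genes, 13 residual degrees of freedom) have terms for group and sequencing run. Standard errors are the log2 fold change over the root of F. Run 1 holds 3 K-Luc libraries, replicate 1 of SWNT/CpG, CpG+SWNT/LP and untreated cells, and all others are run 2. In a list, up to 4 called genes with the smallest adjusted p could be named; Tyro3 was added after its value was seen, and 1 gene that this rule names is not reported here. A likeness is a Pearson correlation of log2 CPM with a prior count of 2. The alternatives tried were a DESeq2 1.42.0 fit; edgeR with DESeq2 size factors; all genes kept; a replicate block; a fit restricted to the groups compared; for K-Luc, dropping the run term or run 1; and omission of each library in turn. Scripts were tested on simulated data. The members, gene lists and tests were chosen with earlier results of these data known. Sequences came from RefSeq (GRCm38.p6) and from GENCODE transcripts of GRCm38, not the authors' build.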

Additional observations from a re-analysis of the deposited data

Results flagged for a closer look

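The response of Axl differed between the 2 cell lines, by the test of the difference itself in a fit of both lines. The log2 fold change of SWNT/CpG over untreated cells was -0.76 ± 0.14 in RAW-Blue and -0.15 ± 0.05 in K-Luc, a difference of -0.62 ± 0.13 (edgeR adjusted p = 0.00138). For CpG over untreated cells it was -0.67 ± 0.14 in RAW-Blue and -0.10 ± 0.05 in K-Luc, a difference of -0.59 ± 0.14 (edgeR adjusted p = 0.00349). Both differences were called under every alternative run and without any 1 library, but their size rested on the untreated RAW-Blue libraries: over the libraries left out they ranged from -0.864 to -0.372 for SWNT/CpG and from -0.818 to -0.336 for CpG, both ends being without 1 untreated RAW-Blue library. The highest adjusted p for CpG, without untreated K-Luc replicate 2, was 0.0488. The lines were treated for different times, and all groups with CpG in RAW-Blue lay below all groups without it.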

How the results depend on the processing

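Counts of members called moved by over 1.5 times under few settings. With only the compared groups in the fit, RAW-Blue counts were 5 (SWNT/CpG over CpG+SWNT/LP), 2 (SWNT/CpG over CpG), 6 (SWNT/CpG over SWNT/LP), 5 (CpG+SWNT/LP over SWNT/LP), 3 (CpG+SWNT/LP over untreated) and 0 (CpG over untreated). DESeq2 and the replicate block each called 2 for SWNT/CpG over CpG+SWNT/LP. In run 2 alone the K-Luc counts over untreated cells were 0 with SWNT/CpG and 1 with CpG+SWNT/LP. Ranked by CPM rather than RPKM, 3 of the 7 RAW-Blue members kept their place. Differences that changed sign under a setting, none of them called, were in RAW-Blue CpG+SWNT/LP over CpG for Msr1 (0.001334 with DESeq2, 0.001303 with its size factors, 0.005244 with no filter) and Axl (0.003424 with no filter). In K-Luc they were Cd68 with SWNT/LP (0.03398 with DESeq2, 0.1182 with no run term) and CpG+SWNT/LP (0.02858 and 0.008011), Axl with SWNT/LP (-0.02707 under the block) and for SWNT/CpG over CpG+SWNT/LP (-0.007506 in run 2 alone), and the difference between lines for Cd68 with SWNT/CpG (0.01912 in run 2 alone). The causes were not tested.

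Leaving out each library in turn gave, over untreated RAW-Blue cells, 3 to 5 members called with SWNT/CpG, 4 to 6 with CpG+SWNT/LP, 2 to 7 with CpG and 0 to 5 with SWNT/LP. SWNT/CpG gave 0 to 0 against CpG+SWNT/LP, 0 to 1 against CpG and 2 to 2 against SWNT/LP; CpG+SWNT/LP gave 0 to 1 against SWNT/LP and 0 to 0 against CpG, and the interaction 0 to 4. In K-Luc the ranges over untreated cells were 0 to 1 (SWNT/CpG), 1 to 2 (CpG+SWNT/LP), 0 to 1 (CpG) and 0 to 0 (SWNT/LP), and 1 to 1 for SWNT/CpG against CpG+SWNT/LP or CpG. Untreated lines gave 4 to 8, and each difference between lines 1 to 1. The lowest count for untreated lines came without untreated K-Luc replicate 2, where the standard errors of the members not called were 195 or more. Where a pair was cut to 1 library, that library is assumed to vary like the other groups.

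Log2 differences that changed sign on leaving out a library ranged, in RAW-Blue, from -0.317 to 0.0954 (Axl) and -0.338 to 0.0079 (Cd68) for SWNT/LP over untreated cells, -0.227 to 0.124 (Cd68) for CpG+SWNT/LP over untreated cells, -0.0696 to 0.0605 (Axl), -0.342 to 0.0873 (Fcgr2b) and -0.102 to 0.0954 (Msr1) for CpG+SWNT/LP over CpG, -0.0168 to 0.239 (Cd68) and -0.134 to 0.0113 (Fcgr3) for CpG+SWNT/LP over SWNT/LP, and -0.0966 to 0.314 (Axl), -0.469 to 0.0035 (Cd36) and -0.131 to 0.0684 (Fcgr1) for the interaction. For Cd68 in K-Luc, at most 29 counts in a library, they ranged over untreated cells from -0.393 to 0.810 (SWNT/CpG), -0.360 to 0.843 (CpG+SWNT/LP), -0.856 to 0.347 (CpG) and -0.270 to 0.933 (SWNT/LP), and from -0.259 to 0.151 for SWNT/CpG over CpG+SWNT/LP. Axl in K-Luc ranged from -0.0546 to 0.0379 (SWNT/LP over untreated cells) and -0.0238 to 0.0218 (SWNT/CpG over CpG+SWNT/LP), and the difference between lines for Cd68 with CpG from -0.646 to 0.547.

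With the replicate number as a block, 2 members were called for CpG over untreated K-Luc cells, Axl (-0.13, adjusted p = 0.00309) joining Mertk. In RAW-Blue the block added calls for Cd36 with SWNT/CpG (0.0358) and Fcgr1 with CpG (0.0307) over untreated cells, Fcgr2b for SWNT/CpG over CpG+SWNT/LP (0.0386), and Fcgr1 for SWNT/CpG (0.0366) and CpG+SWNT/LP (0.0426) over SWNT/LP, where the Msr1 call for CpG+SWNT/LP was lost (0.0547); it changed no other call. Libraries were also correlated after the mean of the group was taken off the log2 CPM of each gene. What was left of same-numbered libraries of different groups correlated at -0.099 to 0.181 in RAW-Blue (over 0.1 in 4 of 20 pairs). In K-Luc it correlated at -0.034 to 0.507 (20 of 26), with a median of 0.20, against -0.094 for pairs of unlike number. For 14 of 14 K-Luc libraries the mean correlation was higher with libraries of the same number. With 2 libraries in a group these remainders mirror each other, so each RAW-Blue value occurs under both replicate numbers. Not every pair was over 0.1 in either line, and the labels tie the numbers to no culture or day, so the block stays an alternative. The library that each one correlated with best had the same number for 10 of 10 in RAW-Blue and 12 of 14 in K-Luc, a hint from the data. In RAW-Blue both libraries of a group must give the same answer, so these 10 are not independent. In K-Luc run 1 holds only replicate 1 of 3 groups. Depth limits Marco, Mrc1 and Mertk in RAW-Blue and 7 members in K-Luc, and with 2 RAW-Blue libraries per group the calls near the threshold rest on single libraries.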
